A study of Mus musculus with 17 samples.

Results

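DN3 thymocytes were compared with early thymic progenitors (ETP) at the level of RNA. The comparison rests on 4 of the 17 arrays of the study, 2 labelled DN3 and 2 labelled ETP, both with thymus as the source, and the groups were taken from the sample titles alone. The other 13 arrays hold 7 populations, named HSC, LMPP, flt3+ CMP, flt3- CMP, CLP, EILP and NK, and serve here only to place the thymic values. All DN3 and ETP cells were sorted by flow cytometry from mice that had been irradiated with 900 rads and then reconstituted with marrow carrying a TCF-1 GFP reporter. The recipients were B6 CD45.1 mice, and 12 weeks passed between transfer and sorting, so donor cells had regrown in an irradiated host in both thymic groups. The labels say the same of the marrow populations other than NK, for which they do not state it. Cells of several mice were pooled per the labels, and nothing there says that replicates came from separate mice. The p-values below therefore measure only the spread between arrays, which may be technical. How ETP and DN3 were gated is not stated in the labels.

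ETP are the earliest T cell precursors of the thymus and keep the receptors and transcription factors of marrow progenitors. Notch signals from the thymic stroma then carry them through the DN2 stage to DN3, where the cells are committed to the T lineage, rearrange the T cell receptor beta gene and display the interleukin 2 receptor alpha chain. Cells whose beta chain pairs with the pre-T alpha chain and the CD3 proteins divide again and move on.

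The label check came first. Of the marker genes chosen for DN3, Il2ra, Ptcra, Cd3e, Cd3d, Cd3g, Notch3, Dtx1 and Bcl11b were all higher in DN3 by the test described next, whereas Rag2 differed by 0.76 ± 0.26 (log2 difference, standard error) and did not pass (limma, adjusted p = 0.091), though it did without ETP replicate 1 (0.0066). Rag1 and Lck were not analysed here because no probe set carries their symbol alone. All 9 markers chosen for ETP (Kit, Cd44, Flt3, Cd34, Lyl1, Mef2c, Bcl11a, Spi1 and Hhex) were higher in ETP. Kit, Cd44 and Il2ra encode surface proteins that commonly define these gates, so their differences describe the labels and are no finding. The lists of T cell surface, Notch, progenitor, homing and mature T cell genes that hold them are also counted without them.

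Expression is given in log2 units, with 1 probe set for each of 22180 genes. A difference is the mean of the DN3 arrays minus that of the ETP arrays, given with its standard error (SE) from a limma fit over all 17 arrays. A gene was called when its Benjamini-Hochberg adjusted p over all 22180 genes was under 0.05. By this rule 1936 genes (8.73%) were called, 1154 of them higher in DN3 (5.2%) and 782 lower (3.53%). List counts below are to be read beside these shares. The lists and their members were chosen with earlier results of these data known. A list share above the share of all genes is therefore a description and no independent test. At least 2-fold changes made up 600 of the higher and 466 of the lower genes, and at least 8-fold changes 35 and 42. Both counts were smaller when either DN3 array was left out. A group with 1 array left is measured less precisely, so this does not show that the counts depend on a particular library. Over all genes the median difference was -0.03. The values of the arrays did not overlap between groups for 10084 genes (45.5%), a share so large that absence of overlap alone says little with 2 arrays a group. Across genes, Pearson's r was 0.984 between the DN3 arrays and 0.973 between the ETP arrays, against a mean of 0.948 between DN3 and ETP arrays.

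Sex-linked genes split the groups. Eif2s3y, a Y-linked gene, lay at 8.49 and 7.80 in DN3 and at 3.63 and 3.43 in ETP, while Xist lay at 7.50 and 7.13 in DN3 and at 11.69 and 11.81 in ETP. The make-up of the pools and the population therefore cannot be told apart, for these genes or for any other. Of 905 X-linked genes 50 were called (5.52%), 25 in each direction, and leaving out all genes of chromosomes X and Y left 1126 higher and 757 lower genes. That step keeps in place any effect of the pools on genes of other chromosomes.

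The genes of the T cell receptor complex and its proximal signalling rose as a group. Of 20 measured list members 15 were higher in DN3, against 5.2% of all genes, 1 was lower and 4 did not pass, and the median difference was 1.56. For 11 of the 20, both DN3 arrays lay above all 15 other arrays of the study, which held for 3.38% of all genes. Cd3g, Cd3d and Cd3e encode the signalling chains that carry the T cell receptor to the surface. Cd3g measured 11.66 and 11.62 in DN3 and 5.69 and 4.74 in ETP. This was a difference of 6.42 ± 0.27 or 85.8-fold (limma, adjusted p = 5e-09), the greatest rise among the genes that the naming rule admits. The SE pools the spread within all populations, most of which are not thymic. For Cd3g the standard deviation was 0.675 between the ETP arrays and 0.0224 between the DN3 arrays. Cd3e measured 10.19 and 10.03 against 3.38 and 4.34, and Cd3d 11.00 and 11.01 against 4.71 and 5.80. The differences were 6.25 ± 0.25 (adjusted p = 3.2e-09) and 5.75 ± 0.36 (adjusted p = 3e-07). For the 3 genes no ETP or marrow array exceeded 8.16, so both DN3 arrays lay apart from the 15 others. In bulk RNA, more cells with a transcript and more transcript per cell cannot be told apart, here and below.

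The 3 CD3 genes are neighbours on chromosome 9, and Cd3g and Cd3d face away from each other on opposite strands. Their promoter windows are printed because these genes rose together. Each window holds 250 bases before and 50 bases after the start of the gene (RefSeq, build GRCm38.p6), 5′ to 3′ along the gene. Capitals mark the E box CAGGTG, the word that E proteins such as Tcf12 and Tcf3 bind, which all 3 windows hold on the other strand, where it reads CACCTG.
Cd3g (chr9:44980382-44980681, minus strand): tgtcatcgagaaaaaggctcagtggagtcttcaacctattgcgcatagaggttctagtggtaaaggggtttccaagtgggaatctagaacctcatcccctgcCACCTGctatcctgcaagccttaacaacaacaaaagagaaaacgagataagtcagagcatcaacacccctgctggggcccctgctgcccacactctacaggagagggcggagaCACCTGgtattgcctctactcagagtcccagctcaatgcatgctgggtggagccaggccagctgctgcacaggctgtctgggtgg
Cd3d (chr9:44981536-44981835, plus strand): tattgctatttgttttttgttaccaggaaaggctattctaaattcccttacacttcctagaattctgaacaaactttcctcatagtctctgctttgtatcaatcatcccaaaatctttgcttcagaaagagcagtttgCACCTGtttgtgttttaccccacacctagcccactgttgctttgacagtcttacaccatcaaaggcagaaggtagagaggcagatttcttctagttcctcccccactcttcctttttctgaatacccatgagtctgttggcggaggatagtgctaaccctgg
Cd3e (chr9:45009562-45009861, minus strand): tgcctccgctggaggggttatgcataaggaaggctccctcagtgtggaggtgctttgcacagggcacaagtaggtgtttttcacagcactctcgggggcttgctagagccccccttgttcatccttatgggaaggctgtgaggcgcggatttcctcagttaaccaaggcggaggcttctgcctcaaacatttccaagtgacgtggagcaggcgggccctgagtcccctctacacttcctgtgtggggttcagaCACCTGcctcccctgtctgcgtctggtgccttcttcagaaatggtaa
The E box CAGGTG, searched on both strands, was found in 9 of 23 windows of this list (39.1%) and in 20.2% of all 32851 windows. It was 1 of 6 words searched in 5 lists. In the windows of the T cell receptor list the PU.1 word GAGGAAG was found in 30.4%, against 13.6% of all windows, and the Runx word TGTGGT in 26.1%, against 16.8%. A match describes the letters and shows no binding. In gene order, the next gene after Cd3e is Mpzl2, an adhesion protein gene, and it too was higher, at 6.54 and 6.06 in DN3 and 3.42 in both ETP arrays, a difference of 2.88 ± 0.18 (adjusted p = 2.9e-07). Mpzl2 lies outside the naming rule and was chosen after its value was seen.

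**Figure D1:**
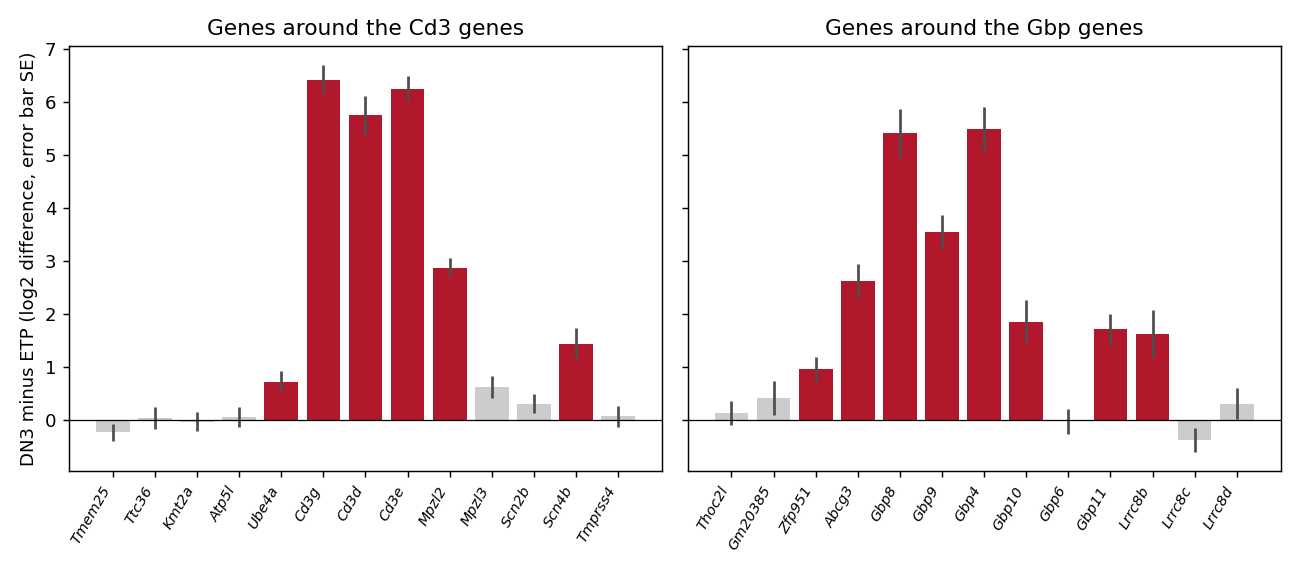
Each bar is the DN3 minus ETP difference (log2, y axis) of 1 gene, with its standard error as the error bar, for genes in RefSeq order along the x axis around the CD3 genes (left) and the Gbp genes (right). Red bars are genes called higher in DN3 and grey bars did not pass: the CD3 genes stand between 5.75 and 6.42 with Mpzl2 at 2.88, and Gbp8 and Gbp4 reach 5.41 and 5.49.

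Adaptors and enzymes that work below the receptor followed. Themis, a thymocyte protein needed for selection, measured 9.30 and 8.89 in DN3 and 3.87 and 4.0 in ETP, a rise of 5.17 ± 0.16 (adjusted p = 3.7e-10), and no marrow array exceeded 3.68. Trat1, a receptor-associated adaptor, rose by 4.02, Skap1, an adaptor in adhesion signalling, by 3.53, and Rasgrp1, which activates Ras, by 3.41. Lat, the scaffold that Zap70 phosphorylates, was already at 9.21 and 8.76 in ETP and rose by 1.73 ± 0.29 to 10.75 and 10.69 (adjusted p = 0.0019). Ptcra, the pre-T alpha chain, measured 6.77 and 7.82 in DN3 and 4.79 and 4.80 in ETP, a difference of 2.50 ± 0.26 (adjusted p = 3.1e-05). Both DN3 arrays of Ptcra lay above every other array, the highest of which was at 4.97. Fyn, a Src kinase, was the list member called lower, by -1.10 ± 0.26 (adjusted p = 0.019). That call was lost without DN3 replicate 1 (adjusted p = 0.056), without DN3 replicate 2 (0.13) and without ETP replicate 2 (0.17).

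**Figure D2:**
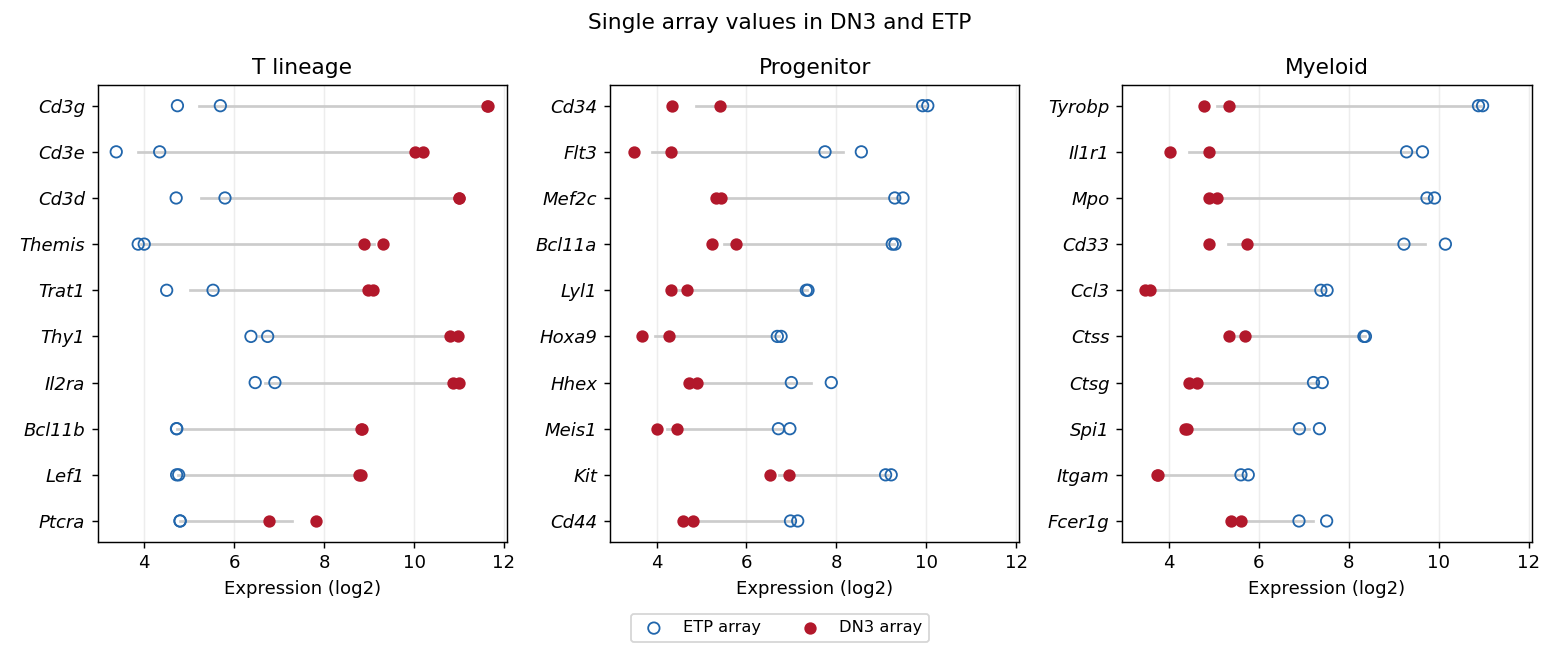
Log2 expression values of single arrays (x axis) for 10 T lineage, 10 progenitor and 10 myeloid genes (rows), with DN3 arrays as filled red points, ETP arrays as open blue points and a grey line joining the group means. For Cd3g the DN3 arrays sit at 11.66 and 11.62 and the ETP arrays at 5.69 and 4.74, and for Tyrobp the order is the reverse, with 4.79 and 5.33 in DN3 and 10.89 and 10.98 in ETP.

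Among 22 surface proteins of T cells, 10 were higher and 3 lower, with a median difference of 0.67, and 1 was lower without DN3 replicate 1 or DN3 replicate 2. Without Il2ra, which may define the gate, 9 of 21 were higher. Over all genes 5.2% were higher and 3.53% lower. Il2ra, the interleukin 2 receptor alpha chain (CD25), measured 11.01 and 10.86 in DN3 and 6.91 and 6.47 in ETP, and no marrow array exceeded 4.85, so both thymic groups lay above the marrow and DN3 above ETP. Thy1 was higher by 4.32 ± 0.21, Ly6d by 4.23 ± 0.26, Slamf6 by 3.51 ± 0.24 and Ctla4, an inhibitory receptor, by 2.99 ± 0.21 (limma, adjusted p from 2e-08 to 6e-07). Il7r, the interleukin 7 receptor alpha chain that keeps early T cells alive, measured 9.65 and 10.05 against 7.02 and 7.95, a rise of 2.37 ± 0.28 (adjusted p = 8.5e-05). Bcl2, a survival gene that interleukin 7 signals maintain, rose by 1.77 ± 0.21 (adjusted p = 0.00012). It was 1 of 2 called higher among 15 genes of the BCL2 family, and the 1 called higher without DN3 replicate 1, ETP replicate 1 or ETP replicate 2. The coreceptor gene Cd8a read 3.69 and 3.67 in DN3 and 3.71 and 4.75 in ETP, near the median of all values, 4.54, and was not called, except without ETP replicate 1 (adjusted p = 0.0026). Cd7, an immunoglobulin family protein, went the other way, from 8.04 and 8.73 in ETP to 4.87 and 4.94 in DN3, a fall of 3.48 ± 0.28 (adjusted p = 2.8e-06). Cd27, a receptor of the tumour necrosis factor family, was lower by -0.99 ± 0.24 (adjusted p = 0.019). It was no longer called without DN3 replicate 1 (adjusted p = 0.085), DN3 replicate 2 (0.11) or ETP replicate 2 (0.12).

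Of 25 transcription factors of the T lineage 8 were higher, against 5.2% of all genes. None was lower by limma (1 at an unadjusted p under 0.05), and the median difference was 0.46. Without ETP replicate 1 or ETP replicate 2, 1 member was called lower. Bcl11b, the zinc finger protein required for commitment, measured 8.82 and 8.85 in DN3 and 4.72 in both ETP arrays, a difference of 4.12 ± 0.16 (adjusted p = 2.6e-09). The ETP values of Bcl11b fell within the range of the marrow arrays, 4.28 to 4.79. Lef1, the relative of TCF-1, measured 8.78 and 8.82 against 4.77 and 4.72, a difference of 4.06 ± 0.23 (adjusted p = 1.3e-07). Ets1, an ETS family factor, rose by 2.38, Ahr, a ligand-activated factor, by 2.13, Ets2 by 2.06 and Tcf12, the E protein HEB, by 1.53 (adjusted p from 3e-06 to 0.00022). Runx1 and Myb, other factors of early T cells, were already high in ETP. Runx1 lay at 8.19 and 8.48 in ETP and at 8.62 and 8.90 in DN3, Myb at 10.43 and 10.50 and then 10.77 and 10.58, and neither difference passed. Gata3, needed from the earliest thymic stages, read 7.13 and 5.66 in DN3 and 6.01 and 5.10 in ETP, so that the groups overlapped (adjusted p = 0.22, and 0.01 without DN3 replicate 2). Tcf7, which encodes TCF-1, was not analysed here because no probe set carries its symbol alone.

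Genes of the Notch pathway gave a mixed picture. Of 24 measured members 5 rose (20.8%) and 2 fell (8.33%), against 5.2% and 3.53% of all genes. The median difference was 0.19. Without Il2ra, 4 of 23 rose. Besides Ptcra, described above, the receptor Notch3 rose by 1.05 ± 0.17 (adjusted p = 0.0014) and Dtx1, a Notch target that encodes a ubiquitin ligase, by 0.98 ± 0.16 (adjusted p = 0.0017). Notch1, the receptor that starts T cell development, measured 8.77 and 8.76 in DN3 and 7.90 and 8.06 in ETP, with the marrow arrays between 5.50 and 6.55. Its difference of 0.79 ± 0.21 was called (adjusted p = 0.029) but lost when any single DN3 or ETP array was left out (adjusted p from 0.068 to 0.12) and after quantile normalization (0.1). Hes1, a direct target and repressor, stood at 7.95 and 7.88 in DN3 and 7.42 and 7.51 in ETP, above a marrow maximum of 5.58, and its difference of 0.46 ± 0.14 did not pass (adjusted p = 0.073, and 0.036 with each array centred on its median). Mfng, a glycosyltransferase that modifies Notch, was lower by -1.56 ± 0.32 (adjusted p = 0.0064), a call lost without DN3 replicate 2 (adjusted p = 0.081) and without ETP replicate 1 (0.059). The count of members that fell was 0 in either case and 1 without DN3 replicate 1.

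Most measured genes of V(D)J recombination and end joining did not pass, and Rag1 and Dclre1c were not analysed. The list mean was 8.04 and 7.99 in DN3, 7.50 and 7.44 in ETP and 6.32 to 7.38 in the marrow arrays. Over all genes 5.2% were higher. Of 11 members 4 were higher, with a median difference of 0.56, and 2 were higher without DN3 replicate 1 or DN3 replicate 2. Lig4, the ligase that seals the broken ends, measured 7.19 and 6.48 in DN3 and 5.36 and 4.92 in ETP, a rise of 1.70 ± 0.24 (adjusted p = 0.00043). Xrcc5, which encodes Ku80, rose by 1.02 ± 0.18 (adjusted p = 0.002). Rag2, a subunit of the recombinase, read 8.22 and 7.88 against 7.74 and 6.83 in ETP, and Dntt, which adds bases at the joints, 11.14 and 11.35 against 10.92 and 10.98, neither past the test.

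Progenitor genes fell in DN3. Of 29 genes of stem and multipotent progenitors 17 were lower, against 3.53% of all genes, none was higher by limma, also at an unadjusted p under 0.05, and the median difference was -1.18. Without Kit and Cd44, 15 of 27 were lower and the median was -0.94. For 9 of the 29, both DN3 arrays lay below all 15 other arrays, which held for 2.86% of all genes. Cd34, a surface sialomucin of progenitors, measured 4.34 and 5.42 in DN3 and 10.03 and 9.92 in ETP, a fall of 5.09 ± 0.31 (adjusted p = 2.5e-07). Flt3, a cytokine receptor of multipotent progenitors, dropped by 4.24 ± 0.35, from 7.75 and 8.55 to 3.50 and 4.32 (adjusted p = 3.1e-06). Kit, the receptor for stem cell factor, read 9.22 and 9.09 in ETP and 6.95 and 6.52 in DN3. The transcription factors that progenitors share went down with them: Mef2c by -4.01, Bcl11a by -3.77, Lyl1 by -2.85, Hoxa9 by -2.75, Hhex by -2.63, Meis1 by -2.60, Gfi1b by -2.20 and Erg by -1.74 (adjusted p from 2.2e-07 to 8.1e-05). Lyl1 stood at 7.37 and 7.33 in ETP and 4.68 and 4.33 in DN3, and Mef2c at 9.48 and 9.30 against 5.33 and 5.43. Erg read 7.37 and 7.25 in DN3 and 8.98 and 9.12 in ETP. Bcl11a and Bcl11b, related zinc finger genes, moved in opposite directions, with Bcl11a at 9.24 and 9.30 in ETP and 5.78 and 5.22 in DN3.

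**Figure D3:**
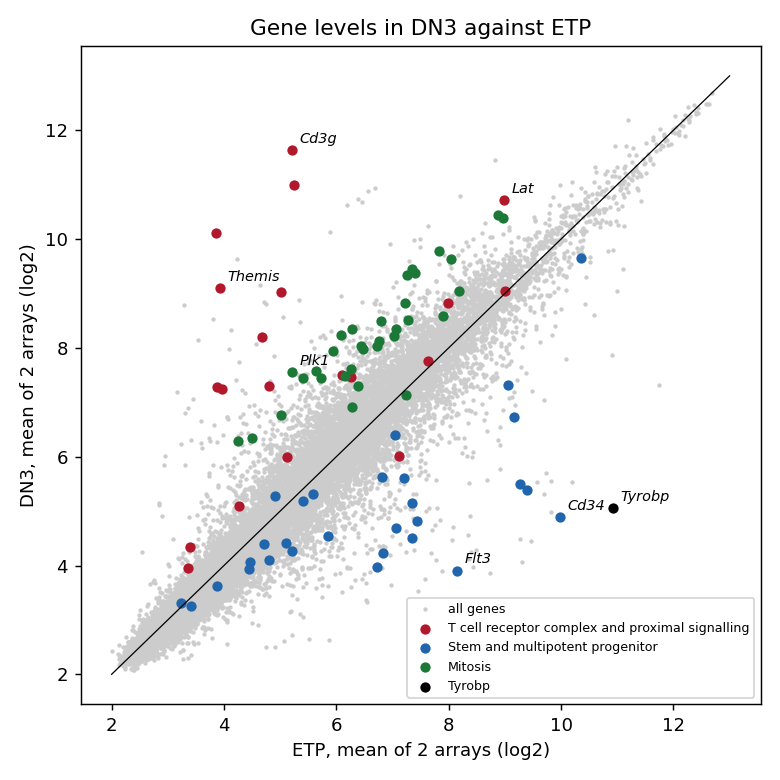
Each point is 1 gene, with its mean log2 value over the 2 ETP arrays on the x axis and over the 2 DN3 arrays on the y axis. Members of 3 lists and Tyrobp are coloured, and the line marks equal values: Cd3g (difference 6.42) lies far above it, Tyrobp (-5.87) and Cd34 (-5.09) far below it, and most mitosis genes (green) above it.

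Myeloid genes were also lower in DN3 where they were called. Of 35 myeloid transcription factors and receptors 13 fell and none rose by limma (2 at an unadjusted p under 0.05), with a median difference of -0.48, and 2 were called higher without ETP replicate 1. Of 29 granule and effector genes 15 fell and none rose (1 at an unadjusted p under 0.05), with a median of -1.04. Over all genes 3.53% fell. Both DN3 arrays lay below the 15 others for 18 of the 35 and 15 of the 29, which held for 2.86% of all genes. Tyrobp, the signalling adaptor DAP12 of myeloid and NK cells, showed the greatest fall among the named genes. It measured 10.89 and 10.98 in ETP, within the 10.28 to 11.86 of the marrow arrays, and 4.79 and 5.33 in DN3, a difference of -5.87 ± 0.19 (limma, adjusted p = 8.6e-10), or 58.5-fold. Mpo, the peroxidase of primary granules, read 9.91 and 9.74 in ETP and 4.88 and 5.08 in DN3, a difference of -4.84 ± 0.23 (adjusted p = 2e-08). Il1r1, an interleukin 1 receptor, differed by -5.00, Cd33, a sialic acid binding receptor, by -4.37, and Spi1, which encodes the myeloid factor PU.1, by -2.74 (adjusted p from 2.5e-07 to 4.9e-06). Spi1 stood at 6.90 and 7.35 in ETP and 4.37 and 4.41 in DN3.

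Not all myeloid genes were high in ETP. S100a9, a neutrophil calcium-binding protein, read 7.54 and 7.48 in ETP against 11.31 to 12.08 in the marrow arrays, and 5.46 and 6.0 in DN3. Ctsg, a granule protease, read 7.41 and 7.22 in ETP against a marrow minimum of 8.55, and 4.63 and 4.45 in DN3. The mean over the granule and effector list was 6.45 and 6.34 in ETP, 5.08 and 5.27 in DN3 and 8.29 or more in every marrow array. These include the NK arrays, at 8.89 and 9.22, above the HSC arrays at 8.29 and 8.74. Whether the list mean follows myeloid potential was not tested. For the myeloid factors and receptors the list mean was 5.85 and 5.86 in ETP and 4.80 and 4.91 in DN3, with a marrow minimum of 6.16. On both lists ETP thus lay between the marrow arrays and DN3.

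**Figure D4:**
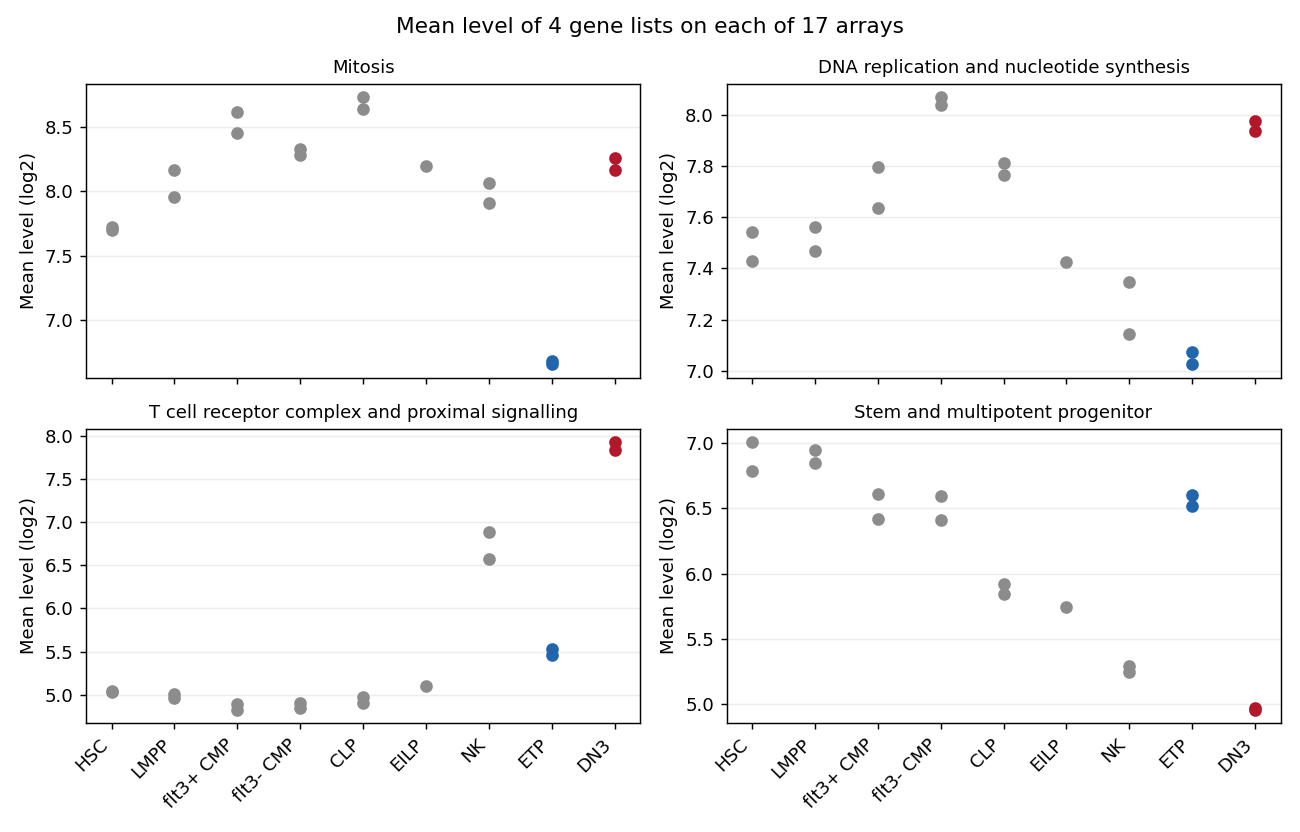
Mean log2 value over the members of 4 gene lists (panels, y axes that do not start at 0) in each of the 17 arrays, 1 point per array, by population on the x axis, with ETP in blue, DN3 in red and the others in grey. On the mitosis list the ETP arrays sit at 6.65 and 6.68, below every other array, and on the T cell receptor list the DN3 arrays sit at 7.92 and 7.83, above every other array.

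Mitosis genes were higher in DN3 almost without exception. Of 33 members 31 were called higher and none lower by limma, against 5.2% of all genes, no member was lower at an unadjusted p under 0.05, and the median difference was 1.58. The list mean was 8.26 and 8.16 in DN3 and 6.65 and 6.68 in ETP, while the marrow arrays ranged from 7.70 to 8.73. DN3 thus lay within the marrow range and ETP below it. Both ETP arrays were lower than all 15 other arrays for 28 of the 33 genes, which held for 2.7% of all genes. Plk1, a kinase of mitotic entry, measured 7.80 and 7.32 in DN3 and 4.82 and 5.62 in ETP, a difference of 2.34 ± 0.39 (adjusted p = 0.0015). Bub1b, a spindle checkpoint kinase, rose by 2.17 ± 0.21, Kif11, a spindle motor, by 2.09 ± 0.20, and Aurka, a centrosome kinase, by 2.03 ± 0.16 (adjusted p from 1.7e-06 to 1.7e-05). Cdk1, the mitotic kinase, read 8.90 and 8.75 against 7.43 and 7.03, and Mki67, which encodes the proliferation marker Ki-67, 10.42 and 10.46 against 8.95 and 8.82. These differences were 1.60 ± 0.17 and 1.55 ± 0.15 (adjusted p = 4.6e-05 and 1.2e-05).

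Genes of DNA replication and nucleotide synthesis had a smaller median difference, 0.79. Of 36 members 23 rose (63.9%, against 5.2% of all genes) and none fell by limma, also at an unadjusted p under 0.05. The count was 15 without DN3 replicate 1 and 13 without DN3 replicate 2. Uhrf1, which recruits the maintenance DNA methyltransferase, read 8.80 and 8.82 in DN3 and 6.98 and 6.56 in ETP, a rise of 2.04 ± 0.21 (adjusted p = 2.6e-05). Rrm1, a subunit of ribonucleotide reductase, rose by 1.72 ± 0.13, Mcm10, a replication initiation factor, by 1.58 ± 0.22, and Mcm2, of the replicative helicase, by 1.35 ± 0.21 (adjusted p from 1.5e-06 to 0.00094). Mcm5, of the same helicase, measured 8.13 and 8.0 against 6.71 and 7.05 (adjusted p = 0.009), but its call was lost without DN3 replicate 1 (adjusted p = 0.069) or ETP replicate 1 (0.061). Both ETP arrays lay below all 15 others for 8 of the 36 genes, which held for 2.7% of all genes. Of 30 cyclins, kinases and inhibitors of the G1 to S step 6 rose and 1 fell (median 0.29), and none fell without DN3 replicate 1, DN3 replicate 2 or ETP replicate 2. On this list 20% rose and 3.33% fell, against 5.2% and 3.53% of all genes. Those that rose included E2f8, a late E2F repressor, at 7.87 and 7.86 against 6.03 and 5.59. Cdkn2c, an inhibitor of Cdk4 and Cdk6, also rose, at 6.39 and 6.53 against 4.81 and 4.65. Of 29 ribosome biogenesis genes 7 rose and none fell (median 0.41, none lower at an unadjusted p under 0.05), and 3 rose without DN3 replicate 1, DN3 replicate 2 or ETP replicate 2. The share of this list that rose was 24.1%, against 5.2% of all genes. Among those that rose were Rrp12, higher by 1.21 ± 0.17, and Mybbp1a, by 1.08 ± 0.15 (limma, adjusted p = 0.00052 and 0.00044).

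The promoter windows of 4 division genes are printed since the mitosis and replication lists differ in the words they hold. Capitals mark the CCAAT box (CCAAT, which reads ATTGG on the other strand) and the cell cycle homology region (TTTGAA) in Plk1, Cdk1 and Bub1b. In Mcm5 they mark only an E2F site (TTTCCCGC or TTTGGCGC, the latter read here on the other strand as GCGCCAAA). Windows, source and build are as for the CD3 genes.
Plk1 (chr7:122159185-122159484, plus strand): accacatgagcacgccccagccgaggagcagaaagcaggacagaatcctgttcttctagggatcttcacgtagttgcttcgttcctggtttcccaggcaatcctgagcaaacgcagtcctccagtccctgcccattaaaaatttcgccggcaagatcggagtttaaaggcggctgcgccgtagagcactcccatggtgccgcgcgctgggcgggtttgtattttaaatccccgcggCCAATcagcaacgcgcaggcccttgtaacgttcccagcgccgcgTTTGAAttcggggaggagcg
Cdk1 (chr10:69352863-69353162, minus strand): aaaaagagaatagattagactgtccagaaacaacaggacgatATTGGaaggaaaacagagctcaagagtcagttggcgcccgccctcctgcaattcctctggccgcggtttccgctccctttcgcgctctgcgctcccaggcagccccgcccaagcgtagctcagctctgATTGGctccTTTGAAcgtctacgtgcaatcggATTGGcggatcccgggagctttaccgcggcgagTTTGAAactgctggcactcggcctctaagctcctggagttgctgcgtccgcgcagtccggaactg
Bub1b (chr2:118597961-118598260, plus strand): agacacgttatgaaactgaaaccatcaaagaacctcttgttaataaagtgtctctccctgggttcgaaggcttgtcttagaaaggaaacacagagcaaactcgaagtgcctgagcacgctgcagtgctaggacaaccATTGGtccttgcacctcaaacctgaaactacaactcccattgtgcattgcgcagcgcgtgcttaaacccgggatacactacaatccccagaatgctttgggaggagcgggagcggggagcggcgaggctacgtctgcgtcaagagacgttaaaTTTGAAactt
Mcm5 (chr8:75109259-75109558, plus strand): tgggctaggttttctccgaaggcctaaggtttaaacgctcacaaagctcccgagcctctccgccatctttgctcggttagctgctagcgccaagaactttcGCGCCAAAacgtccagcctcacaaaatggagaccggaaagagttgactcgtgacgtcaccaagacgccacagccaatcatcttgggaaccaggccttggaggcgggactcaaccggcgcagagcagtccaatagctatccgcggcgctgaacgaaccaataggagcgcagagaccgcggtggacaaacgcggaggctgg
With both strands searched, CCAAT was found in 24 of 29 windows of mitosis genes (82.8%), in 21 of 36 of replication genes (58.3%) and in 37.4% of all windows. TTTGAA was in 22 of 29 windows of mitosis genes (75.9%), 11.1% of those of replication genes and 17.9% of all windows. The E2F words were in 11 of 36 windows of replication genes (30.6%), 0 of 29 of mitosis genes and 1.56% of all windows. None of these words contains another, and longer or degenerate forms were not searched. These shares describe windows, several of which can belong to 1 gene, and were read from the sequence alone.

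**Figure D5:**
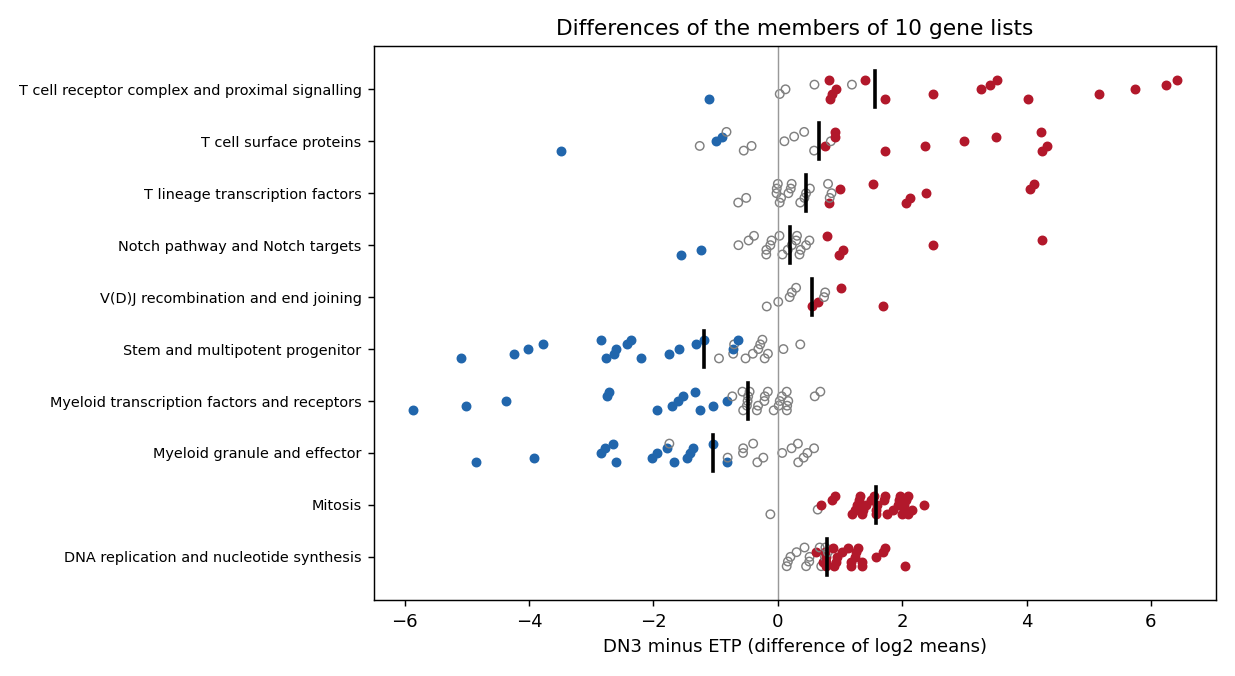
DN3 minus ETP differences (log2, x axis) of the single members of 10 gene lists (rows), with members called higher in red, called lower in blue and not called as open circles, and the list median as a black line. The T cell receptor and mitosis lists have medians of 1.56 and 1.58, and the stem and granule lists of -1.18 and -1.04.

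The naming rule also brought up genes outside the T cell, progenitor and division lists. Gbp4 and Gbp8, guanylate-binding proteins, measured 9.12 and 8.45 and 9.49 and 9.78 in DN3, against 3.13 and 3.46 and 3.63 and 4.83 in ETP. Their differences were 5.49 ± 0.41 and 5.41 ± 0.46 (adjusted p = 1.2e-06 and 4.7e-06). Their neighbours Gbp9, Gbp10, Gbp11 and Abcg3 were higher by 3.54, 1.86, 1.71 and 2.62, and the call of Gbp10 was lost without DN3 replicate 1 (adjusted p = 0.09) or ETP replicate 1 (0.076). Gbp6, which lies between Gbp10 and Gbp11, differed by -0.02 ± 0.24 and was not called (adjusted p = 0.97), and its sign changed with each array centred on its median and with quantile normalization. These neighbours were chosen for their place beside Gbp4, after values were seen. Gbp genes are close relatives, and a probe set may take signal from several of them. Guanylate-binding proteins are known as interferon-induced. Of 17 other interferon response genes 6 fell (35.3%, against 3.53% of all genes). None rose by limma, also at an unadjusted p under 0.05, and the median was -0.38. Between 1 and 2 fell when any single DN3 or ETP array was left out, and 3 when each array was centred on its median. Oas2, an antiviral enzyme, was lower by -1.60 ± 0.26 and Mx2 by -1.32 ± 0.25 (adjusted p = 0.0015 and 0.0038), the latter call lost without DN3 replicate 2 (adjusted p = 0.055).

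Gzma, a serine protease of cytotoxic granules, read 9.34 and 8.98 in DN3 and 4.92 and 4.35 in ETP, a rise of 4.53 ± 0.32 (adjusted p = 6.4e-07). It was the 1 member called higher among 25 genes of NK and innate lymphoid cells, of which 6 fell (median -0.42), and 2 were higher without DN3 replicate 2. Histone genes H2ac15 and H1f5 rose by 4.71 ± 0.58 and 4.35 ± 0.54, but their ETP arrays lay apart, at 2.96 and 4.67 and at 5.37 and 7.41, and histone genes have near-identical copies. For both genes ETP lay below the marrow arrays, which read 7.23 to 10.16 and 9.20 to 11.48. The DN3 arrays, at 8.37 and 8.68 and at 10.64 and 10.84, lay within these ranges. Aqp11, an intracellular water channel, rose by 4.42 ± 0.30, Khdc1a, a KH domain gene, by 4.24 ± 0.28 and Rnf125, a ubiquitin ligase, by 4.20 ± 0.22. For Rnf125 the ETP arrays, at 4.52 and 3.73, were below the 6.34 to 8.51 of the marrow arrays, and DN3 at 8.31 and 8.34 lay within them. On the other side, Car2, carbonic anhydrase 2, was at 9.36 and 9.24 in ETP and 3.81 and 4.32 in DN3. Samhd1, which degrades deoxynucleotides, fell by 4.79 ± 0.18, from 9.23 and 9.30 to 4.63 and 4.33 (adjusted p = 2.6e-09). Adgrl4 and Adgrg3, adhesion G protein receptors, differed by -4.88 and -4.04, Rgs1 and Rgs18, regulators of G protein signalling, by -4.22 and -4.04, and Lst1, Ctla2b and Bex6 by -4.27, -4.46 and -4.14.

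Stress and early response genes were lower where they differed. Of 22 members 5 fell and none rose by limma, also at an unadjusted p under 0.05 (median -0.10), and 2 or 3 fell when any single DN3 or ETP array was left out. The share of this list that fell was 22.7%, against 3.53% of all genes. Those that fell included Ier3 by -2.27 ± 0.19 and Zfp36, which destabilises cytokine messages, by -2.22 ± 0.26 (limma, adjusted p = 4.7e-06 and 9.2e-05). Among 22 chemokine receptors and integrins 2 rose (9.09%) and 2 fell (9.09%), against 5.2% and 3.53% of all genes, and these counts are too small to read as a result about the list. Without Cd44, 1 of 21 fell, and 1 of 22 fell without DN3 replicate 1, DN3 replicate 2 or ETP replicate 2. Cxcr4, the CXCL12 receptor that supports cells at the beta checkpoint, measured 9.53 and 9.37 in DN3 and 8.41 and 8.19 in ETP, a rise of 1.15 ± 0.20 (adjusted p = 0.0019).

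Markers of other cell types were at similar low means in both groups for most lists. Over all genes 5.2% were higher and 3.53% lower. Counts of 1 to 3 members in a list are too small to read as a result about it. None of 16 B lineage genes and none of 16 macrophage markers was called by limma, against 4 and 1 at an unadjusted p under 0.05. Without ETP replicate 2, 1 macrophage marker was called lower, and the macrophage list mean was 4.34 and 4.50 in DN3 and 4.48 and 4.49 in ETP. Of 12 mature B and plasma cell markers Xbp1 was higher. Of 14 thymic epithelial markers Epcam was higher (2 were without ETP replicate 1), and of 15 mature T cell markers Ctla4 (2 without DN3 replicate 2), with 2 lower (1 without either DN3 array). Of 15 stromal and endothelial markers Pdgfrb was lower, and of 17 dendritic cell markers 1 was higher (2 without DN3 replicate 2) and 3 lower. Of 6 red cell markers Car2 was lower. Without Cd44, which may define the gate, 1 of 14 mature T cell markers was lower. The NK and innate lymphoid list mean was 4.70 and 4.78 in DN3 and 5.28 and 5.31 in ETP. Whether other cells took part in the differences was not tested.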

How the data were processed

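The log2 values per probe set were deposited by the authors as 1 table of 41345 probe sets for 17 arrays (Affymetrix Mouse Gene 2.0 ST). Per the labels' protocols, RNA was extracted with Trizol and amplified with a NuGEN Pico kit, and per the submitters' processing notes the values came from Affymetrix Expression Console. Neither its version nor its algorithm is stated there. The deposited log2 unit was read from the values, which lie between 1.84 and 12.89 over the genes tested, with array medians of 4.45 to 4.62.

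The 23521 probe sets with 1 gene symbol were kept, and for 1082 genes with several the probe set with the highest mean, which left 22180 genes. A further 1814 probe sets carry several symbols and 16010 carry none, and these were not tested. A mean per population was fitted to all 17 arrays with limma 3.58.1 (lmFit and eBayes, R 4.3.3, 8 residual and 5.33 prior degrees of freedom, two-sided) and p was adjusted by Benjamini-Hochberg. EILP has 1 array and is assumed to vary like the others. The 26 gene lists have no test of their own. The members and lists were chosen with earlier results of these data known. Named genes are the 15 greatest rises and 15 greatest falls among called genes with a log2 difference of at least 1 and no overlap between the arrays, leaving out predicted genes, small RNAs, pseudogenes, receptor segments, olfactory receptors and sex-linked genes, plus list members and markers. The steps were tested on simulated data. Promoter windows and microRNA sequences are RefSeq's, and 125 of 147 members of the 5 searched lists had a window. The number of arrays limits the precision, with a median SE of 0.20.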

Additional observations from a re-analysis of the deposited data

How the results depend on the processing

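Fitting only the 4 DN3 and ETP arrays gave 619 higher and 464 lower genes, with 2 V(D)J genes and 15 replication genes higher, 1 Notch gene lower and 0 T cell receptor genes lower. That fit has fewer arrays to estimate the spread. With each array centred on its median, 1429 genes were higher and 657 lower. After quantile normalization 991 were higher and 900 lower. How far higher genes outnumber lower ones, and the shares of all genes set beside the lists, thus depended on the normalization. Leaving out 1 DN3 or ETP array at a time gave 656 to 1016 higher and 459 to 899 lower genes. Over the same settings, 2 to 3 V(D)J genes, 13 to 19 replication genes and 0 to 2 myeloid factors and receptors were higher. Lower were 0 to 1 T cell receptor genes, 1 to 4 T cell surface genes, 0 to 1 T lineage factors and 0 to 2 Notch genes. Where an array is left out, the lone array of its group is assumed to vary like the other groups. Under the settings run for these lists (not all probe sets and not without chromosomes X and Y) 26 to 32 mitosis genes were higher, 13 to 18 progenitor genes lower and 12 to 17 granule genes lower.

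Replicate numbers were not taken to pair arrays: same-numbered DN3 and ETP arrays deviated with a correlation of 0.05, and 28 such pairs of populations ranged from -0.07 to 0.09. With the replicate number as a block the counts were 1166 higher and 785 lower, and 1852 calls were shared with the reported ones. Leaving out genes of chromosomes X and Y, and leaving Kit, Cd44 and Il2ra out of the lists, were chosen after seeing the data. No gene named in the text that was called changed direction under any setting. Gbp6, which was not called, read 0.046 with arrays centred, 0.038 after quantile normalization and -0.17 to 0.12 with 1 array left out, and the cause was not tested. Of the 1936 calls 422 have at least 1 group mean below the median of all values, 4.54, where the size of a difference is less certain. No sample group was large enough for a check of single outlying arrays.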

Other observations

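Of the 25 genes of NK and innate lymphoid cells 6 were lower in DN3 (24%, against 3.53% of all genes) and 18 did not pass. Gzma was the 1 member higher in DN3 (4%, against 5.2% of all genes), by 4.53 ± 0.32. Of those that were lower, Fasl, the death ligand, measured 7.77 and 7.98 in ETP and 3.97 and 3.82 in DN3, a difference of -3.98 ± 0.15 (limma, adjusted p = 1.9e-09), and its ETP mean of 7.87 was close to the NK mean of 7.93. Klrd1, an NK receptor chain, read 7.58 and 6.38 in ETP and 3.36 and 3.91 in DN3. Il18rap and Il18r1, the interleukin 18 receptor chains, were lower in DN3 by -3.0 ± 0.26 and -2.23 ± 0.16 (adjusted p = 4.9e-06 and 6.4e-07).

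The following genes lie outside the naming rule and were chosen after their values were seen. Olfr649, an olfactory receptor gene, read 8.28 and 7.92 in the ETP arrays and 2.48 and 2.50 in DN3, with every marrow array at or below 2.76. Its difference was -5.61 ± 0.17 (limma, adjusted p = 3.7e-10). Genes next to it in RefSeq order were also lower in DN3: Olfr648 by -3.24, Ubqlnl by -3.21 and Olfm5 by -2.41. For Olfr648 and Ubqlnl the ETP arrays, at 5.71 and 6.02 and at 7.16 and 5.92, stood above all 15 other arrays, the highest of which were 2.97 and 3.83.

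Probe sets named for 5 microRNA genes were lower in DN3 and were called, as were 3.53% of all genes. These 5 were chosen after their values were seen. The share called among all microRNA genes was not counted, so the 5 say nothing about microRNA genes or their families as a set. What RNA these probe sets measure (precursor, hairpin or host transcript) is not stated, so mature levels cannot be read from them. Mir17 and Mir18 of the same cluster differed by -1.36 ± 0.21 and -1.54 ± 0.27 (adjusted p = 0.00095 and 0.0026). Mir181c differed by -1.27 ± 0.17, Mir181b-1 by -1.60 ± 0.31 and Mir181a-1 by -1.06 ± 0.30 (adjusted p = 0.00035, 0.0045 and 0.043). For Mir181a-1 the arrays read 2.42 and 2.28 in DN3 and 4.09 and 2.73 in ETP, all below the median of all values, and its call was lost without DN3 replicate 1, DN3 replicate 2 or ETP replicate 1 (adjusted p from 0.13 to 0.22). The call of Mir181b-1 was lost without DN3 replicate 2 (0.056) or ETP replicate 2 (0.053). Members of the miR-181 family tune the sensitivity of the T cell receptor in thymocytes. The mature 5p sequences (RefSeq, 5′ to 3′) are shown because the miR-181 5p arms share a seed, bases 2 to 8, in capitals. The 3p arms have other seeds and are not shown.
miR-181a-5p: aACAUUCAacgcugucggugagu
miR-181b-5p: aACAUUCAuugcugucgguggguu
miR-181c-5p: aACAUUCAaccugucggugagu
miR-17-5p: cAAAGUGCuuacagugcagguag
miR-18a-5p: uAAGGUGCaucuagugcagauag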
